A study of Homo sapiens with 4 samples.

Results

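The genes described here are the ligands, receptors, antagonists and core proteins of Wnt signalling, measured by RNA sequencing in A549, an established line of human lung adenocarcinoma cells. They were chosen by gene symbol: the WNT, FZD, DKK, SFRP and DVL families, LGR4 to LGR6, LRP5, LRP6, AXIN1, AXIN2, APC, CTNNB1, the TCF7 family, LEF1, RNF43, ZNRF3, NKD1 and NKD2. Of 58 symbols that matched, among 34484 in all, the 38 with at least 40 reads over the libraries are the members, and all 38 were tested. The study treated cells for 3 h with 100 nM dexamethasone, a synthetic glucocorticoid (the dex group, 2 libraries), or with ethanol at 0.02%, the vehicle (the etoh group, 2 libraries). All cells were of this 1 line and carried no other label. Nothing in the labels ties the 2 libraries of a group to different cultures. The p-values therefore cover the spread between these libraries alone, and that spread may be technical.

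Wnt ligands are secreted lipid-modified proteins. They bring a Frizzled receptor together with LRP5 or LRP6, which stops a complex built on AXIN and APC from destroying beta-catenin, and beta-catenin then works with TCF and LEF factors in the nucleus. DKK1 blocks the LRP co-receptors and SFRP proteins bind Wnts outside the cell, whereas R-spondins, acting through LGR receptors, shield Frizzleds from the ubiquitin ligases RNF43 and ZNRF3. In the lung the pathway is known for its part in the growth of airway and alveolar epithelium.

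Aligned reads numbered 9828448 and 11138944 for the dex libraries, against 9764159 and 11887526 for the etoh libraries. A count of 0 allows up to 3 reads, between 0.252 and 0.307 CPM (a gene's reads per 1000000 aligned reads), counting error only. Hormone response was present: the glucocorticoid-induced genes FKBP5, TSC22D3, PER1 and KLF9 had log2 fold changes of 3.39, 4.46, 3.88 and 2.77. Of the lists of cell type markers, the 5 epithelial genes summed to between 7345 and 8506 CPM in dex and between 4229 and 4903 CPM in etoh. Within that list the keratins KRT8, KRT18 and KRT7, which hold nearly all of the sum, rose at log2 fold changes of 1.04, 0.68 and 0.67, whereas EPCAM at -0.21 (SE 0.20) and CDH1 at 0.15 (SE 0.12) did not pass. The leukocyte list summed to at most 3.36 CPM in dex and 2.27 CPM in etoh, with CD3E at 0, and the endothelial list to at most 1.02 CPM in dex and 0.307 CPM in etoh, with VWF at 0. Fibroblast genes summed to between 18.5 and 24.1 CPM in dex and between 15.5 and 18.3 CPM in etoh, with COL1A2 at 0, and alveolar type II genes to between 29.9 and 40.9 CPM in dex and between 24.2 and 27.7 CPM in etoh, with SFTPA1 at 0. The part of these marker levels in the results below was not tested. In bulk RNA, fewer cells of a kind and less RNA per cell cannot be told apart.

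After 3 h of dexamethasone, 7 of the 38 members fell and 1 rose (21.1% called). The ligand WNT7B, the antagonist DKK1, the receptors FZD5, FZD7 and FZD8, the co-receptor LRP6 and the scaffold AXIN2 were lower in dex, and DKK3 was higher. The other 30 members did not pass the threshold of 0.05 on p-values from the edgeR quasi-likelihood test, adjusted by Benjamini and Hochberg's method over 14716 tested genes. Among all tested genes 11.5% passed, 7.12% higher and 4.34% lower in dex. The median log2 fold change of dex over etoh was -0.02 over the members and 0.0018 over all tested genes, and the median size of the change was 0.30 over the members and 0.19 over all. In 26 of the 38 members the libraries of the 2 groups did not overlap in CPM, against 53.4% of all tested genes. At an unadjusted p under 0.05 there were 13 of the 38 members, against 23.6% of all tested genes.

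**Figure D1:**
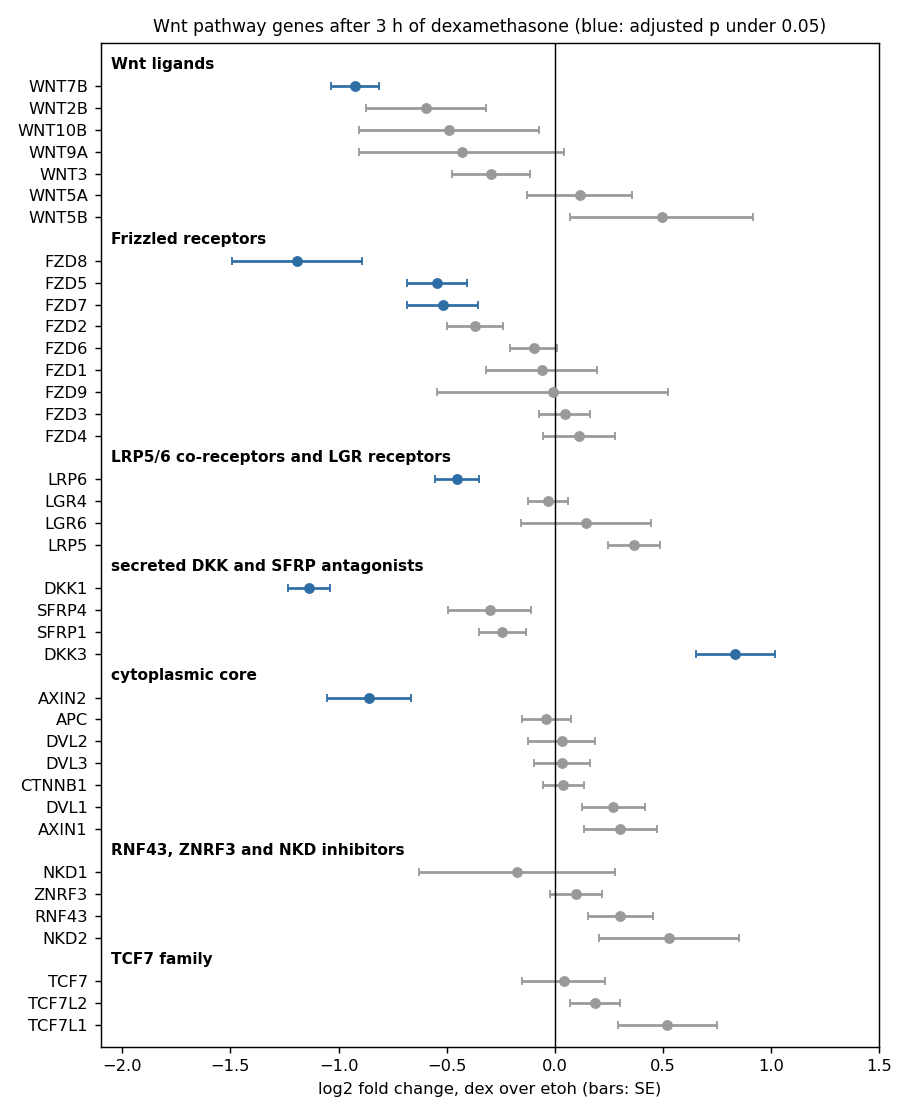
Log2 fold change of dex over etoh (x axis) with its standard error for the 38 members, grouped by role down the page; blue points passed an adjusted p of 0.05. The 7 genes that fell lie between -1.19 (FZD8) and -0.45 (LRP6), and DKK3, the gene that rose, lies at 0.83.

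Among the ligands, WNT7B, which in lung development is made by the epithelium and acts on the neighbouring mesenchyme, carried most of the Wnt RNA of these cells. WNT7B had 48.2 and 47.1 CPM in the dex libraries, against 87.4 and 96.4 CPM in the etoh libraries. Both dex libraries lay well below both etoh libraries. The log2 fold change was -0.92 (SE 0.11, adjusted p = 1.9e-06 by edgeR). The 4 WNT7B transcripts with at least 40 reads were all lower in dex, with log2 ratios of mean CPM between -0.97 and -0.85, although reads placed among transcripts of a gene share sequence and the transcripts were not tested. WNT7B lies on chromosome 22 from 45920362 to 45977129 on the minus strand (GRCh38, GENCODE 29).

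The other 6 ligands that reached 40 reads did not pass. WNT3, a ligand of the beta-catenin branch, had 9.36 and 9.43 CPM in dex and 11.4 and 12.03 CPM in etoh (log2 fold change -0.30, SE 0.18). Both dex libraries of WNT3 lay below both etoh libraries, but the difference did not pass. WNT2B had 3.66 and 3.14 CPM in dex and 3.99 and 6.31 CPM in etoh. Its log2 fold change was -0.60 (SE 0.28, adjusted p = 0.19 by edgeR), but -0.23 without etoh replicate 2, the library at 6.31 CPM. WNT2B shares 20.7% of its 36-base words with the overlapping gene ST7L on the opposite strand. WNT5A and WNT5B, ligands best known for signalling without beta-catenin, were at 0.11 (SE 0.24) and 0.49 (SE 0.42), and WNT10B and WNT9A, with 57 and 46 reads in all, were at -0.49 (SE 0.42) and -0.43 (SE 0.47).

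Summed over all 19 WNT genes as RPKM (CPM per kb of transcript, each transcript's reads over its own length), the ligand level was 24.9 and 23.9 in dex and 39.8 and 43.7 in etoh. The share of that sum held by WNT7B was 71.9% and 72.3% in dex and 82.4% and 82.5% in etoh. The remaining 12 WNT genes had 18 reads or fewer over all libraries, and WNT2, WNT3A and WNT8A had 0.

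**Figure D2:**
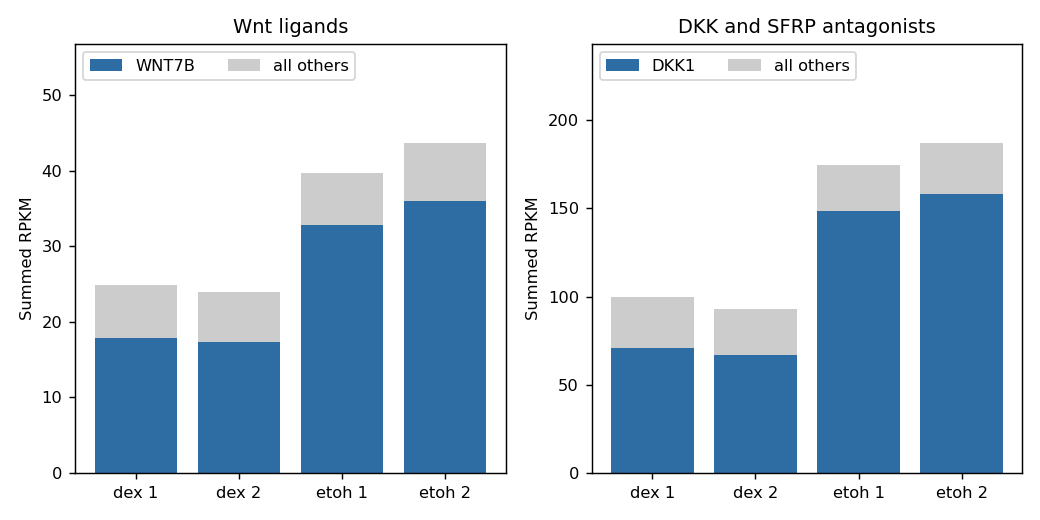
Level summed over Wnt ligands (left panel) and over DKK and SFRP antagonists (right panel) in RPKM for each library, dex libraries left of etoh libraries; the blue part is WNT7B or DKK1. The ligand sum is 24.9 and 23.9 in dex and 39.8 and 43.7 in etoh, and the grey remainder differs little in height between libraries.

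Of the 9 Frizzled receptors with 40 reads, 3 fell, against 4.34% of all tested genes called lower in dex. FZD8 had 2.34 and 1.71 CPM in dex and 4.92 and 4.46 CPM in etoh, from 23 and 19 reads in dex and 48 and 53 reads in etoh. Its log2 fold change was -1.19 (SE 0.30, adjusted p = 0.0099 by edgeR). FZD5, the closest relative of FZD8 within the family, had 18.7 and 20.7 CPM in dex and 30.2 and 28.4 CPM in etoh, a log2 fold change of -0.55 (SE 0.14, adjusted p = 0.010 by edgeR). In both genes of this pair each dex library was lower than each etoh library. FZD7, which belongs to the FZD1, FZD2 and FZD7 branch, had 12.4 and 11.1 CPM in dex and 17.4 and 16.8 CPM in etoh, a log2 fold change of -0.52 (SE 0.16, adjusted p = 0.041 by edgeR).

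Each of these 3 calls was lost on leaving out some single libraries. FZD8 was at -0.97 without dex replicate 2 (adjusted p = 0.078) and at -1.11 without etoh replicate 1 (adjusted p = 0.054), and DESeq2 gave it an adjusted p of 0.10. FZD5 was at -0.48 without dex replicate 1 (adjusted p = 0.064) and at -0.49 without etoh replicate 1 (adjusted p = 0.075). FZD7 missed the threshold without dex replicate 2 (-0.44), without etoh replicate 1 (-0.48) and without etoh replicate 2 (-0.56), and DESeq2 gave it an adjusted p of 0.20.

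FZD6 and FZD2 were the most abundant Frizzleds per length. FZD6, which is known mainly from planar cell polarity, had 65.2 and 68.9 CPM in dex and 74.4 and 71.6 CPM in etoh, and its log2 fold change of -0.10 (95% interval -0.32 to 0.12) did not pass. FZD2 had 42.1 and 32.9 CPM in dex and 45.4 and 52.8 CPM in etoh (log2 fold change -0.37, adjusted p = 0.073 by edgeR, SE 0.13). With no count filter FZD2 passed, but not with DESeq2 or limma-voom. The FZD2 libraries did not overlap between groups but spread within each, and FZD2 passed without dex replicate 1 (-0.56, adjusted p = 0.0044) and without etoh replicate 1 (-0.46, adjusted p = 0.040), but was at -0.197 without dex replicate 2 (adjusted p = 0.45) and at -0.27 without etoh replicate 2 (adjusted p = 0.30). FZD2 and FZD7 share stretches of identical sequence, 2.50% of the 36-base words of FZD2 and 1.36% of those of FZD7. FZD3, FZD4 and FZD1 lay between -0.06 and 0.11, and FZD9, with 45 reads in all, had 0.407 and 1.62 CPM in dex and 1.23 and 0.925 CPM in etoh. FZD4 overlaps PRSS23 on the opposite strand, which has 16770 reads in the libraries, so its reads are uncertain.

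**Figure D3:**
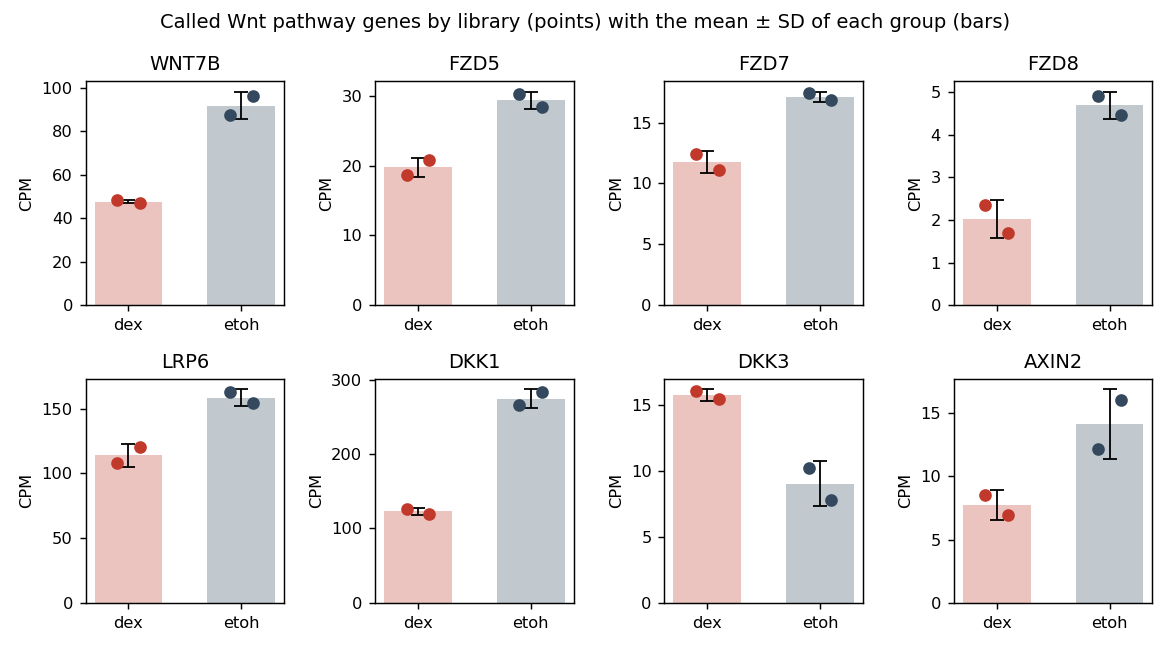
CPM of the 8 members that passed the test, 1 panel per gene; points are libraries, bars the mean with its SD over 2 libraries, dex left of etoh. In each panel the points of the groups do not overlap, which also holds for 53.4% of all tested genes. These 8 were picked by the test on the same libraries. DKK3 alone of these 8 stands higher in dex.

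Of LRP6 and LRP5, the paired co-receptors that Wnts and DKK1 both bind, LRP6 fell, while LRP5 had a positive fold change that did not pass. LRP6 had 108 and 120 CPM in dex and 163 and 154 CPM in etoh, a log2 fold change of -0.45 (SE 0.10, adjusted p = 0.0041 by edgeR). LRP5 had 93.7 and 76.0 CPM in dex and 60.9 and 72.6 CPM in etoh. Its log2 fold change of 0.37 (SE 0.12, 95% interval 0.11 to 0.62) missed the threshold at an adjusted p of 0.054 by edgeR. With no count filter, and with the most abundant transcript, LRP5 passed, but not with DESeq2 or limma-voom. LRP5 passed without dex replicate 2 (0.51, adjusted p = 0.0036) and without etoh replicate 2 (0.48, adjusted p = 0.018), but was at 0.20 without dex replicate 1 (adjusted p = 0.55) and at 0.26 without etoh replicate 1 (adjusted p = 0.41). LRP6 passed without each library in turn, at adjusted p values up to 0.048. Per length, the ratio of LRP6 to LRP5 RNA was 0.751 and 1.01 in dex and 1.89 and 1.41 in etoh. The ratio was thus lower in both dex libraries than in either etoh library, and the difference between the fold changes of these genes was not tested. All 5 LRP6 transcripts with at least 40 reads were lower in dex, with log2 ratios from -1.20 to -0.24. LRP6 lies on chromosome 12 from 12116025 to 12267012 (GRCh38).

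LGR4, a receptor for R-spondins, was among the 3 most abundant members per length. It had 467 and 483 CPM in dex and 493 and 492 CPM in etoh. The log2 fold change was -0.03, with a 95% interval from -0.23 to 0.16. LGR6, another R-spondin receptor, was at 0.14 (SE 0.30) on 133 reads, and LGR5, a marker of intestinal stem cells, had 0 reads.

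DKK1, the secreted inhibitor of LRP5 and LRP6, fell, with the smallest adjusted p of the 38 members. It had 126 and 119 CPM in the dex libraries, against 265 and 283 CPM in the etoh libraries, from 1243 and 1328 reads in dex and 2592 and 3367 reads in etoh. The log2 fold change was -1.14 (SE 0.10, 95% interval -1.34 to -0.93, adjusted p = 1.7e-08 by edgeR). Its level per length held rank 3 of the 38 members in dex and rank 2 in etoh. DKK1 lies on chromosome 10 from 52314296 to 52318042 on the plus strand (GRCh38), and 8.18% of its 36-base words also occur in PRKG1-AS1, an opposite-strand gene with 39 reads in all.

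The promoters of DKK1 and FZD8, the members with the largest decreases, are shown as RefSeq gives them on GRCh38.p14, from 250 bases before the annotated start to 50 bases after it. DKK1 is at chr10:52314031-52314330 on the plus strand and FZD8 at chr10:35642247-35642546 on the minus strand. Capitals mark every match to CTTTGA or its reverse complement TCAAAG, the core of sites that TCF factors bind, to AGAACA or its reverse complement TGTTCT, the hexamer of glucocorticoid receptor sites, or, on the coding strand only, to TATAAA, the TATA box.
DKK1: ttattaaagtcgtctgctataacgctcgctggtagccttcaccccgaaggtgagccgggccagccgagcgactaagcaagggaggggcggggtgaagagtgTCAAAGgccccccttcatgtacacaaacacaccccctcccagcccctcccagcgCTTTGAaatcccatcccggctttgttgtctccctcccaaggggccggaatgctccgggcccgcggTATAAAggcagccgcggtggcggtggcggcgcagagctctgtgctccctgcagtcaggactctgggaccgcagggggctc
FZD8: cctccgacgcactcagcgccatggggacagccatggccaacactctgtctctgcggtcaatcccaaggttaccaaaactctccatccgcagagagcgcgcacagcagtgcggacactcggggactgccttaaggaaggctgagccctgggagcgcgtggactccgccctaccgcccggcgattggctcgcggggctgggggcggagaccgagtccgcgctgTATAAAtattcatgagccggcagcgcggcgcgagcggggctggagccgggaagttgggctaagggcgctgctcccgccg

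Both windows hold TATAAA, starting at base -30 in DKK1 and at base -29 in FZD8, counted back from the annotated start. TATAAA occurs in 7.33% of the 35116 RefSeq windows. The 26 members with a window used here had 36 windows in all. Of these 36 windows 2 held TATAAA, those of DKK1 and FZD8, which is near that share. Of the called members, only DKK1, FZD5 and FZD8 had a window used here. The DKK1 window also holds the TCF core at bases -149 and -95. Of all windows 12.9% hold it at least once and 1.29% at least 2 times. Of the 36 member windows 1 held it, that of DKK1. The glucocorticoid receptor hexamer is in neither window shown, and it occurs in 14.8% of all windows. Of the 36 member windows 5 held it, which is near that share. They belong to APC, RNF43, TCF7, TCF7L2 and WNT2B, and these genes did not pass the test. The FZD5 window holds none of these letters. The motifs were chosen after the fold changes were known, and a match is a description of the sequence.

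DKK3, a divergent relative of DKK1 that is not known to act on LRP6 as DKK1 does, was the 1 member that rose. DKK3 had 16.1 and 15.4 CPM in dex and 10.2 and 7.82 CPM in etoh, a log2 fold change of 0.83 (SE 0.18, adjusted p = 0.0029 by edgeR). Without each library in turn, the log2 fold change of DKK3 lay between 0.62 and 1.04. Both of its transcripts with at least 40 reads were higher in dex. DKK3 lies on chromosome 11 from 11963106 to 12009769. SFRP1, a secreted Frizzled-like decoy, had 65.2 and 62.4 CPM in dex and 72.3 and 81.0 CPM in etoh (log2 fold change -0.24, adjusted p = 0.17 by edgeR, SE 0.11), and SFRP4 was at -0.30 (SE 0.19). The dex libraries of both SFRP genes lay below their etoh libraries, without passing the test. Summed per length over DKK and SFRP genes, the antagonist level was 99.7 and 93.1 RPKM in dex and 175 and 187 in etoh, of which DKK1 held 70.9% and 71.6% in dex and 84.9% and 84.6% in etoh. DKK2, DKK4 and SFRP2 had 0 reads.

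The read minimum left 20 matching symbols out. Among them was TCF7L1-IT1, with 1 read, which matched the TCF7 pattern but is a separate gene from TCF7L1. SFRP5, just under the minimum with 33 reads, had 14 and 12 reads in dex and 4 and 3 reads in etoh. Just above the minimum, FZD9 had 45 reads and WNT9A and NKD1 had 46 each. These are given as values only. LEF1, a nuclear partner of beta-catenin, had 1 read in dex and 1 in etoh.

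In the cytoplasmic core, AXIN2, a scaffold of the destruction complex and itself a textbook target of beta-catenin and TCF, fell. It had 8.55 and 6.91 CPM in dex and 12.2 and 16.1 CPM in etoh, a log2 fold change of -0.86 (SE 0.19, adjusted p = 0.0043 by edgeR). The etoh libraries stood apart from each other, and without etoh replicate 2 the value was -0.66 with an adjusted p of 0.052. Both AXIN2 transcripts with at least 40 reads were lower in dex, at -0.97 and -0.96. AXIN2 (chromosome 17, 65528563 to 65561647, GRCh38) shares 24.5% of its 36-base words with an overlapping gene model on the same strand, AC004805.1, and which of the genes some AXIN2 reads came from is uncertain.

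The other core genes did not pass. CTNNB1, which encodes beta-catenin and was the most abundant member per length, had 559 and 575 CPM in dex and 582 and 539 CPM in etoh. Its groups overlapped, and the 95% interval of its log2 fold change, 0.04, ran from -0.16 to 0.24. APC, the tumour suppressor of the destruction complex, had 44.9 and 48.1 CPM in dex and 49.7 and 47.4 CPM in etoh (-0.04, SE 0.11). AXIN1, the AXIN2 homologue that is not known as a Wnt target, was at 0.30 (SE 0.17), and the Dishevelled genes DVL1, DVL2 and DVL3, which relay the signal from Frizzled, were at 0.27 (SE 0.15), 0.03 (SE 0.16) and 0.03 (SE 0.13). The intervals of these genes do not reach a 2-fold change.

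Of the 4 feedback inhibitors 0 passed edgeR's test, with 0 at an unadjusted p under 0.05 (23.6% of all tested genes), and DESeq2 and limma-voom called 0. ZNRF3 and RNF43, the ubiquitin ligases that remove Frizzled from the cell surface, had 37.0 and 37.4 CPM (ZNRF3) and 21.9 and 22.0 CPM (RNF43) in dex, against 34.7 and 35.9 CPM (ZNRF3) and 19.6 and 16.7 CPM (RNF43) in etoh. The dex libraries of both lay above the etoh libraries by small amounts, at log2 fold changes of 0.10 (SE 0.12) and 0.30 (SE 0.15). RNF43 shares 56.2% of its 36-base words with AC004687.2, an overlapping gene model, and 19.1% with TSPOAP1-AS1 on the opposite strand. It shares 1.43% with SUPT4H1, which has 2164 reads in the libraries, so some RNF43 reads are uncertain. NKD2 and NKD1, which bind Dishevelled, were at 0.53 (SE 0.33) and -0.18 (SE 0.45) on 109 and 46 reads.

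Of the 3 nuclear factors with 40 reads 0 passed edgeR's test, with 1 at an unadjusted p under 0.05 (TCF7L1; 23.6% of all tested genes), and DESeq2 and limma-voom called 0. TCF7L2, a TCF of many epithelia, had 62.6 and 55.2 CPM in dex and 50.6 and 54.5 CPM in etoh (log2 fold change 0.19, SE 0.11). TCF7L1, which mostly acts as a repressor, had 6.41 and 8.08 CPM in dex and 4.51 and 5.72 CPM in etoh (0.52, SE 0.23, adjusted p = 0.17 by edgeR). TCF7, a TCF best known from T cells, had 8.65 and 8.89 CPM in dex and 8.30 and 9.001 CPM in etoh, and its groups overlapped (0.04, SE 0.19).

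Levels are comparable between genes only per length. CTNNB1 averaged 192 ± 3.96 RPKM in dex and 188 ± 11.6 in etoh (SD, n = 2 each), LGR4 101 ± 3.04 in dex and 110 ± 4.98 in etoh, and DKK1 68.6 ± 2.86 in dex and 153 ± 7.02 in etoh. These 3 stood apart from the rest, among which the next was FZD6 at 22.6 ± 1.06 in dex and WNT7B at 34.4 ± 2.33 in etoh. WNT7B was at rank 9 of the 38 in dex and at rank 4 in etoh. In dex, FZD6, TCF7L2, LRP5, FZD2, LRP6 and WNT7B lay between 17.6 and 22.6 on this scale, and neighbours in that order differed by less than the larger of their SDs except FZD6 and TCF7L2. At the low end were NKD1, WNT9A and FZD9, with NKD1 lowest at 0.220 in dex and 0.249 in etoh.

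**Figure D4:**
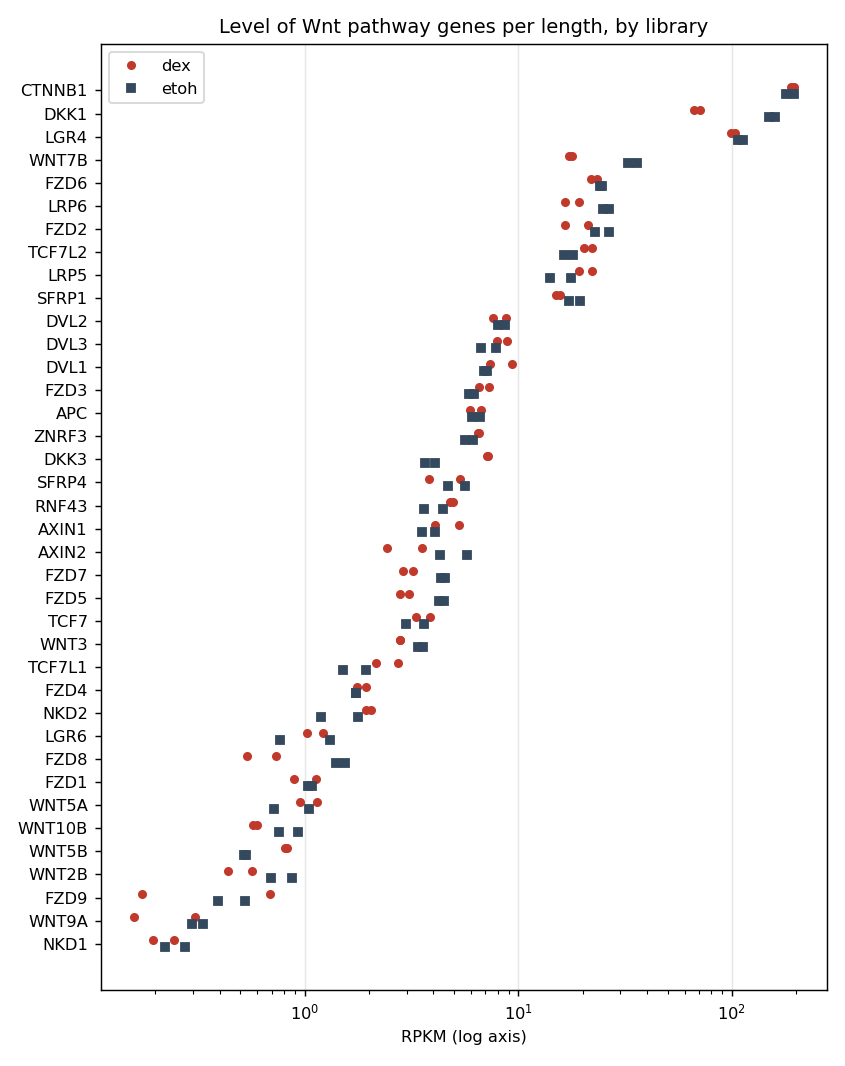
Level per length of the 38 members in RPKM (log axis), 1 point per library, dex as circles above etoh as squares. CTNNB1, LGR4 and DKK1 stand apart at the top, and the points of DKK1 and WNT7B lie further left in dex than in etoh.

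Other genes of the pathway were taken as a list of 74 further symbols, of which 55 were tested. Of these 4 rose and 2 fell, and 49 did not pass; the 10.9% called lay near the 11.5% of all tested genes. The median log2 fold change of the list was 0.02. TLE3, a Groucho corepressor that TCF factors recruit, had 57.7 and 46.0 CPM in dex and 18.1 and 18.5 CPM in etoh, a log2 fold change of 1.52 (SE 0.14, adjusted p = 3.2e-08 by edgeR). BCL9L, a coactivator of beta-catenin, had 132 and 110 CPM in dex and 60.3 and 64.6 CPM in etoh (0.97, SE 0.11). A corepressor and a coactivator thus both stood higher in the dex libraries. Their relatives did not pass: TLE1 was at -0.17 (SE 0.12), TLE4 at -0.22 (SE 0.14), BCL9 at -0.32 (SE 0.16) and TLE2 at 0.29 (SE 0.33). FRAT2, which binds the kinase GSK3, had 12.3 and 12.03 CPM in dex and 6.76 and 6.73 CPM in etoh (0.87, SE 0.19), and CSNK1D, a casein kinase, rose by 0.62 (SE 0.10).

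RSPO3, an R-spondin and so a ligand of the abundant receptor LGR4, fell. It had 189 and 185 CPM in dex and 282 and 268 CPM in etoh (log2 fold change -0.53, adjusted p = 4.2e-04 by edgeR, SE 0.10). RSPO1, another R-spondin, had 68.8 and 48.7 CPM in dex and 72.4 and 59.5 CPM in etoh, so that its groups overlapped. CXXC5, known to bind and restrain Dishevelled, had 20.6 and 21.8 CPM in dex and 42.6 and 45.3 CPM in etoh (-1.03, SE 0.13). The genes of the list with the most reads among those that did not pass, a ranking not corrected for length, were USP34, at -0.04 (SE 0.10), and CTNND1, at -0.01 (SE 0.09).

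A list of 35 genes known as targets of beta-catenin and TCF in various tissues had 22 tested. Of these 3 rose and 5 fell (36.4% called, against 11.5% of all tested genes). The list was chosen with earlier results of these data known, so these shares are not an independent comparison. The median log2 fold change of the list was -0.11. ID2, which blocks DNA binding of basic helix-loop-helix proteins, had 86.0 and 108 CPM in dex and 209 and 180 CPM in etoh, and fell by 0.98 on the log2 scale (SE 0.12). Also lower in dex were BAMBI, a decoy receptor of the TGF-beta family, at -0.91 (SE 0.14), JUN at -0.77 (SE 0.14), the transcription factor SOX9 at -0.62 (SE 0.12) and the AP-1 gene FOSL1 at -1.04 (SE 0.25). The transcription factor TBX3 rose by 0.69 (SE 0.11), VEGFA by 0.49 (SE 0.12) and the cyclin CCND1 by 0.34 (SE 0.10). MYC had 177 and 190 CPM in dex and 169 and 196 CPM in etoh, with overlapping groups, and CD44 was at 0.01 (SE 0.10). Members of the list thus went both ways, and many of these genes also answer to other signals. CCND1 did not pass without dex replicate 2 (0.31) or etoh replicate 2 (0.28), FOSL1 without the same libraries (-0.77 and -0.84), and VEGFA without etoh replicate 2 (0.41). DESeq2 called neither FOSL1 (adjusted p = 0.058) nor VEGFA (adjusted p = 0.053).

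**Figure D5:**
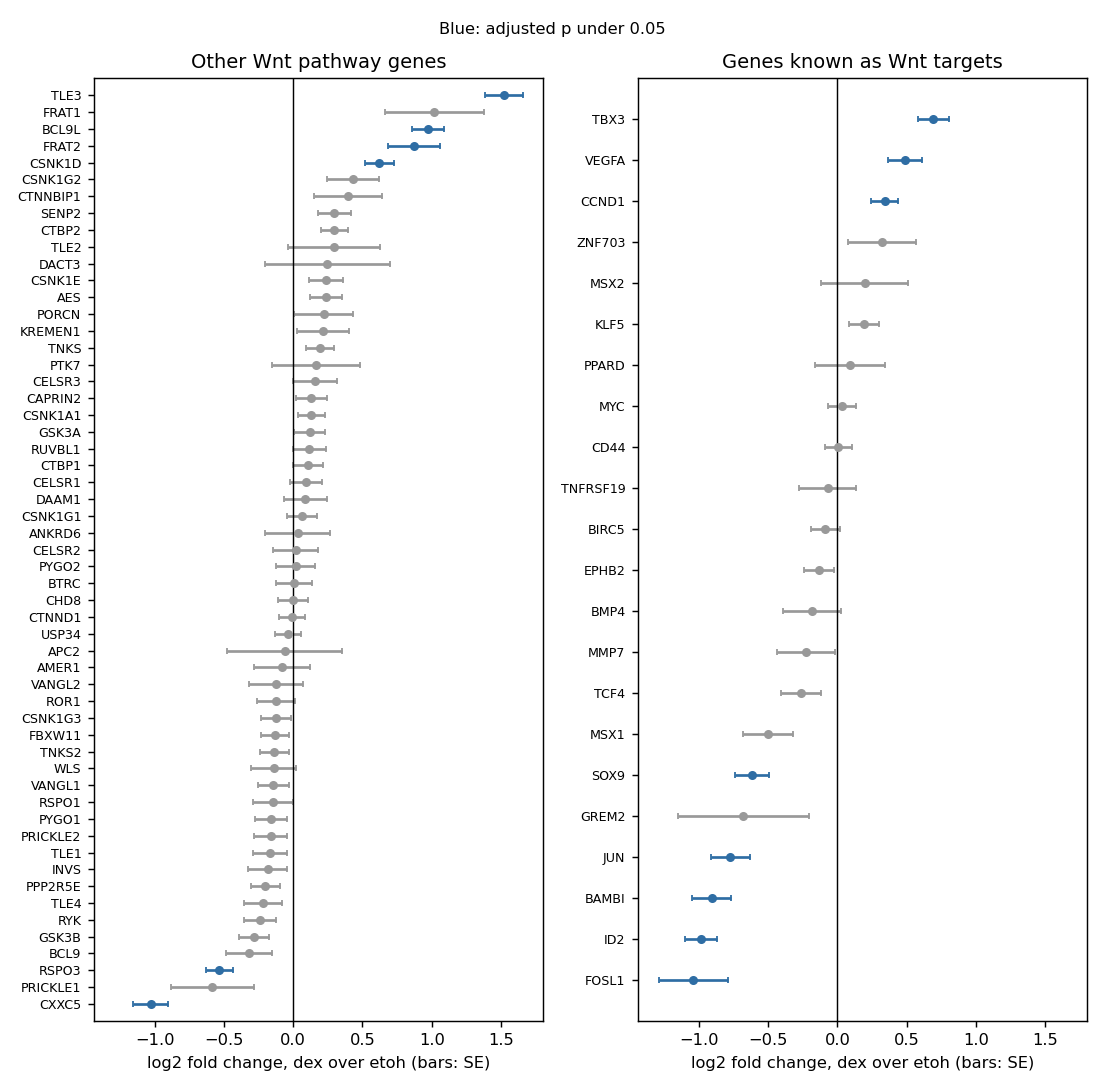
Log2 fold change of dex over etoh (x axis) with its standard error for 55 other Wnt pathway genes (left) and 22 known Wnt targets (right), sorted from high to low; blue points passed an adjusted p of 0.05. TLE3 lies highest at 1.52 and FOSL1 lowest at -1.04, and most genes lie near 0.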

How the data were processed

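The deposited files hold raw counts: reads aligned to each of 119207 transcript sequences and, in an unnamed row, unaligned reads, which were 17.2% to 18.7% of each library and were left out. Per the submitters' processing notes, the authors used CASAVA, Bowtie, SAMtools and DESeq2. The sources used here give no version, genome build, annotation release or strand setting for these steps. Near-identical transcripts of a gene appear to share its reads (5 long TCF7L2 transcripts held 259 to 322 reads each). Transcripts were therefore summed by gene symbol. How reads that match several transcripts were placed is not stated. If such reads were counted on each transcript, the sums would count them more than once.

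Counts were tested with edgeR 4.0.16 (filterByExpr with a minimum count of 10, TMM, quasi-likelihood test, two-sided, Benjamini-Hochberg over all tested genes, adjusted p of 0.05), with library size as all aligned reads. The SE is the absolute log2 fold change divided by the square root of F, and intervals are at 95%. DESeq2 1.42.0 and limma-voom (limma 3.58.1) were alternatives. Data were simulated for dex against etoh over 14471 genes. Of 100 genes changed by 1 on the log2 scale 83% were recovered, and of 100 changed by 0.6, 61%, with 10 false calls. Fewer genes were thus changed than the 1687 called in the data. The adjustment of p-values depends on that number, so these rates need not hold for the data. Changed genes were drawn only from those above a minimum mean CPM, so these rates do not cover the members of lowest CPM. If each read was counted once, libraries of a group differed by more than sampling noise (chi-square per degree of freedom 5.83 within dex and 7.62 within etoh). Reads counted more than once would also raise these values. Positions and sequence shared with other genes came from GENCODE 29 on GRCh38, matched by gene ID for 38 members, and promoters from RefSeq. Levels per length sum each transcript's reads over its own length.

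The members, lists and tests were chosen with earlier results of these data known. Named with values were each called member, the 2 members of each role with the most reads, called genes of the other lists and the 2 uncalled genes with the most reads; LRP5, TCF7L1, RSPO1 and others were added after their values were seen.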

Additional observations from a re-analysis of the deposited data

How the results depend on the processing

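Of the 8 member calls, all 8 were kept with DESeq2 size factors, library totals, no count filter, 1 CPM in 2 libraries, limma-voom and the most abundant transcript, 6 with the DESeq2 test and 6 at an adjusted p of 0.01. Newly called were FZD2 and LRP5 with no count filter, and LRP5 with the most abundant transcript. No named gene that passed changed sign under an alternative. Of the 8 calls, 7 were kept without dex replicate 1, 6 without dex replicate 2, 5 without etoh replicate 1 and 6 without etoh replicate 2. With newly called genes counted too, 6 to 8 members, 6 to 8 other pathway genes and 6 to 8 targets were called without each library in turn, and 1100 to 2004 genes in all, lowest without etoh replicate 1. The count over all genes was 1038 with DESeq2 and 1013 at an adjusted p of 0.01. With the replicate block 7 members were called: FZD7 did not pass (adjusted p = 0.058), nor did CCND1 (0.057). The labels do not tie the numbers to shared cultures, and deviations of same-numbered libraries had a correlation of -0.21. With the numbers crossed, added after that was seen, the block called 2819 genes, 11 members, 10 other pathway genes and 9 targets. The order of levels by longest transcript had a rank correlation of 0.97 with that given. At this depth, members under 60 reads had standard errors above 0.4.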
